A study of Mus musculus with 8 samples.

Results

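The nuclear receptors are transcription factors whose activity is mostly set by small lipid-soluble ligands. The genes described here are the 39 nuclear receptor genes outside the REV-ERB and ROR groups that had been listed by name. Each was taken as the row of the gene table that carries its symbol, and all 39 were found among its 45706 rows. Of these, 35 had enough counts to be tested, out of 14629 genes tested in all. RNA was sequenced from the livers of female mice on the C57BL/6J background, 4 of them WT and 4 SA/SA, with 1 library per mouse. All 8 mice were 4 months old, ate regular chow before the experiment and were fasted overnight, and no fed mice are among these samples. In SA/SA mice, both copies of Plin5, the gene of the lipid droplet protein perilipin 5, carry the substitution S155A, which puts alanine in place of a phosphorylated serine. The change was made in the germline by CRISPR-Cas9, so that it is present in every cell and the gene keeps its own promoter, and it was verified by sequencing in a founder mouse. The question was whether loss of this phosphorylation site changes the transcriptional response of the liver to fasting.

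Nuclear receptors bind short DNA motifs as monomers, homodimers or heterodimers with a retinoid X receptor (RXR), and they exchange corepressors for coactivators when a ligand binds. In the liver they act as sensors of fatty acids (PPARs), oxysterols (LXRs), bile acids (FXR) and foreign compounds (PXR and CAR). The 3 NR4A receptors differ from these in that their level is mainly set by rapid transcription, for example after glucagon and cAMP.

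Total counts per library were between 39709830 and 54540612, and the 39 receptors took between 0.274% and 0.366% of them. Levels are in CPM, in which each library is brought to one common size with a TMM correction for differences in RNA composition. The labels give hepatocytes as the cell type, but markers of other liver cells were present in every library, so the tissue is treated here as whole liver. Summed markers of Kupffer cells were between 294 and 649 CPM, those of sinusoidal endothelial cells between 217 and 313 CPM and those of stellate cells between 381 and 642 CPM. Markers of lymphocytes summed to 1264 CPM in SA/SA mouse 3 and to between 13.9 and 33 CPM in the other mice, and the part of these cells in any value below was not tested. In bulk tissue, fewer cells of a type and less RNA per cell cannot be told apart. No gene passed an adjusted p of 0.05 in edgeR's quasi-likelihood test, while 497 genes had an unadjusted p under 0.05. DESeq2 called 6 genes. The p-values measure the spread between these mice.

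The sequences just before the start sites are shown first for Nr4a1 and Nr0b2, which had the largest SD of log2 CPM within genotypes of the 35 tested receptors, and for the other 2 members of the NR4A family. They come from RefSeq (GRCm38.p6) and are written 5′ to 3′ on the strand of the gene. They cover the 250 bases before the start, except for Nr4a3 (ENSMUSG00000028341), of which the first 98 bases are printed, up to where GENCODE release M21 begins the first exon. The window of Nr4a1 (ENSMUSG00000023034) lies inside the span that GENCODE gives the gene, chromosome 15 from 101254269 to 101274795, and outside its exons. In the NR4A genes, capitals mark TGACG or its reverse complement CGTCA, the core of the cAMP response element. The printed stretches are chr15:101266596-101266845 on the plus strand for Nr4a1, chr2:57124004-57124253 on the minus strand for Nr4a2 and chr4:48045055-48045152 on the plus strand for Nr4a3.
Nr4a1: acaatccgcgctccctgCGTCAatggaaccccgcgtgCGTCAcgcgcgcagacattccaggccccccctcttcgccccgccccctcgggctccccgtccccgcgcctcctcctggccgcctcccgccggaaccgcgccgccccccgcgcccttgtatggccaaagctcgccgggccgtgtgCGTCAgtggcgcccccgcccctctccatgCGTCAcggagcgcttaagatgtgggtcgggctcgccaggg
Nr4a2: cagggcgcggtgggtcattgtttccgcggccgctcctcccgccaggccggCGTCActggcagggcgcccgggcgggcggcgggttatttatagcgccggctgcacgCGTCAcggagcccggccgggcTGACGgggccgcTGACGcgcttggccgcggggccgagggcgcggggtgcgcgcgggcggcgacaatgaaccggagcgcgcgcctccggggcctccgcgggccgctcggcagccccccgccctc
Nr4a3: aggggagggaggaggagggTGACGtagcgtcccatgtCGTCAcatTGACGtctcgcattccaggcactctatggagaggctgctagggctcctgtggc

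Nr4a1 and Nr4a2 hold 4 such matches each in these sequences. Nr4a3 holds 3 in the printed stretch and 4 in its whole window of 250 bases. Counted on both strands, TGACG was present in 17.8% of 32851 RefSeq start windows of this length, and 4 or more matches were present in 45 of them, or 0.137%. Of 56 windows of 36 receptors, 11 held TGACG, and the 3 NR4A windows were the only ones with 4 or more. The full palindrome TGACGTCA was in 1.55% of all windows and in none of the receptor windows. A match is a description of letters and not a site shown to be bound.

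Nr0b2 (ENSMUSG00000037583) encodes SHP, a receptor without a DNA-binding domain that represses other receptors. Its window is chr4:133553126-133553375 on the plus strand, and capitals mark TCAAGG, a core motif bound by LRH-1, and TATAAA, the TATA box.
Nr0b2: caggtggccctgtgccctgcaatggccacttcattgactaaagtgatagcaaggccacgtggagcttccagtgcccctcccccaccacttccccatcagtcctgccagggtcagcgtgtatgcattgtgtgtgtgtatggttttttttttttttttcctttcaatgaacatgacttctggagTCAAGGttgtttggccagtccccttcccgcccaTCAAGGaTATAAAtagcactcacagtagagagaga

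The Nr0b2 window holds 2 matches to TCAAGG, which start 68 and 35 bases before the start site, and 1 to TATAAA, which starts 28 bases before it. TCAAGG was present in 12.5% of all windows and in 6 receptor windows. TATAAA was present in 12.4% of all windows and in 8 receptor windows. AGGTCA, the core motif of most nuclear receptors, was in 14% of all windows and in 10 receptor windows.

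To compare genes with each other, CPM was divided by the length of all exons of the gene in kilobases. On this scale the receptors were spread over 3601-fold from the highest to the lowest one tested. Nr1i3 (CAR, a sensor of foreign compounds) was highest, at 189 ± 29.3 CPM per kb (SD, n = 8). Hnf4a, which maintains hepatocyte gene expression, followed at 165 ± 41.4 CPM per kb, and Rxra, the main RXR of the liver, at 94.9 ± 17.1 CPM per kb. These 3 genes held between 53.4% and 61.5% of the summed level of all 39 receptors in a mouse. On the opposite strand Tomm40l overlaps Nr1i3 and Hnf4aos overlaps Hnf4a, and several lower receptors also overlap such genes. The strand setting of the counting is not given in the sources used here, so these levels may include reads of the overlapping genes.

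The next receptors in the order were Nr1h3 (LXR alpha) at 58.2, Nr1h4 (FXR, the bile acid receptor) at 54.9, Nr1i2 (PXR) at 38.6, Nr2f6 at 28.8 and Ppara at 24.7 CPM per kb. Together with the first 3, these made up between 80.8% and 87.0% of the summed level. The same 8 genes came first when the median length of the coding transcripts was used in place of all exons. Their order was not fully kept, since Rxra, at 199, was then above Hnf4a, at 182 CPM per kb. Over all receptors 2 genes, Thra and Ppard, moved by more than 3 ranks. In all, 12 receptors had at least 10 CPM per kb, 16 had between 1 and 10, and 11 had less than 1.

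Of the 38 neighbouring pairs in this order, 36 had ranges over the 8 mice that overlapped. The exceptions were the step from Rxrb to Nr5a2, which encodes LRH-1, and the step from Nr4a3 to Vdr. Compared within each mouse by the length of all exons, 9 pairs had the same order in all 8 mice. Among them were Hnf4a over Rxra, which turned with the other length, Rxra over Nr1h3 and Nr1h4 over Nr1i2. The other 29 pairs changed order or were equal in at least 1 mouse, with Nr1i3 above Hnf4a in 6 of 8. Among the PPARs, Ppara was far above Pparg at 5.16 and Ppard at 1.17 CPM per kb, and among the RXRs Rxra was above Rxrb at 11.6 and Rxrg at 4.40 CPM per kb. Nr1h3 was above Nr1h2 (LXR beta) at 17.4 CPM per kb.

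**Figure D1:**
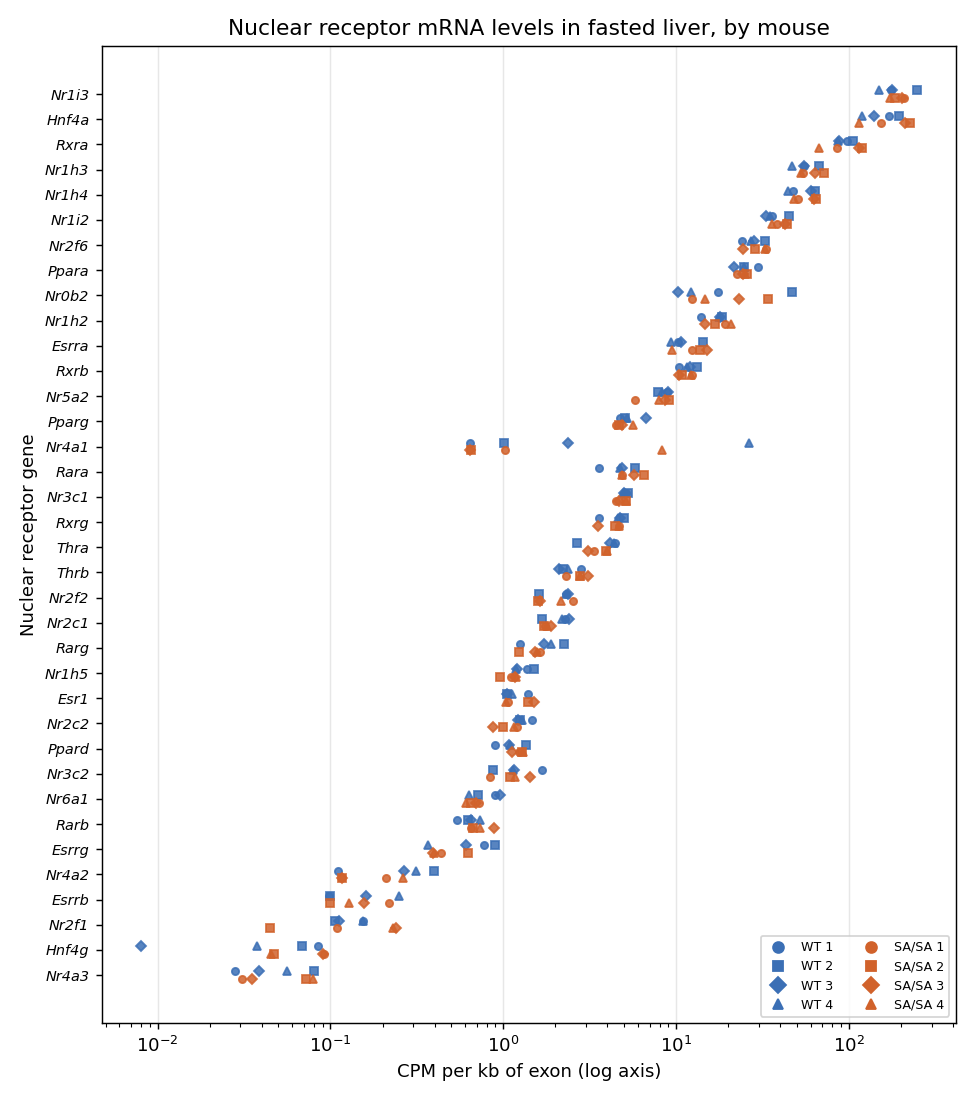
Level of each nuclear receptor gene in the liver of each mouse, as CPM per kb of exon on a log axis, for the 36 genes with at least 1 count in every mouse. Blue symbols are the 4 WT mice, orange symbols the 4 SA/SA mice, and symbol shape gives the replicate. Most genes form a narrow cluster of 8 points, while Nr4a1 runs from 0.638 to 26.5 CPM per kb.

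The other 4 receptors were not tested. Nr0b1 (DAX-1, a receptor of steroidogenic tissues) was at 0 counts in all 8 mice, which allows up to 3 counts per library. Vdr, the vitamin D receptor, had between 0 and 4 counts, and Pgr, the progesterone receptor, had 6 counts in WT mouse 2 and 0 in the other mice. Hnf4g, a close relative of Hnf4a, had between 1 and 13 counts. Differences in these genes were not detectable at this depth.

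SA/SA mice were then compared with WT mice. None of the 35 tested receptors passed an adjusted p of 0.05 in edgeR, where 0% of all genes tested did. The lowest adjusted p of a receptor in edgeR was 0.993. At an unadjusted p under 0.05 there was 1 receptor, Nr2c2, or 2.86% of those tested, beside 3.4% of all genes. DESeq2 also gave 1 receptor, beside 4.07% of all genes. At an adjusted p of 0.05 DESeq2 called 0 receptors, beside 0.0411% of all genes. The genotypes did not overlap for 2 receptors (5.71%), Nr2c2 and Nr1h5, both lower in SA/SA mice, beside 2.3% of all genes.

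The direction of the differences was mixed. The log2 fold change of SA/SA over WT was above 0 for 16 receptors and below 0 for 19, or 45.7% above 0 beside 48.8% of all genes. The median was -0.04 over the receptors and -0.01 over all genes. The 95% interval of the difference lay within a 2-fold change in either direction for 29 of the 35 receptors, and within a 1.5-fold change for 22. The 6 with wider intervals were Esrrg, Nr0b2, Nr2f1 and the 3 NR4A genes.

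**Figure D2:**
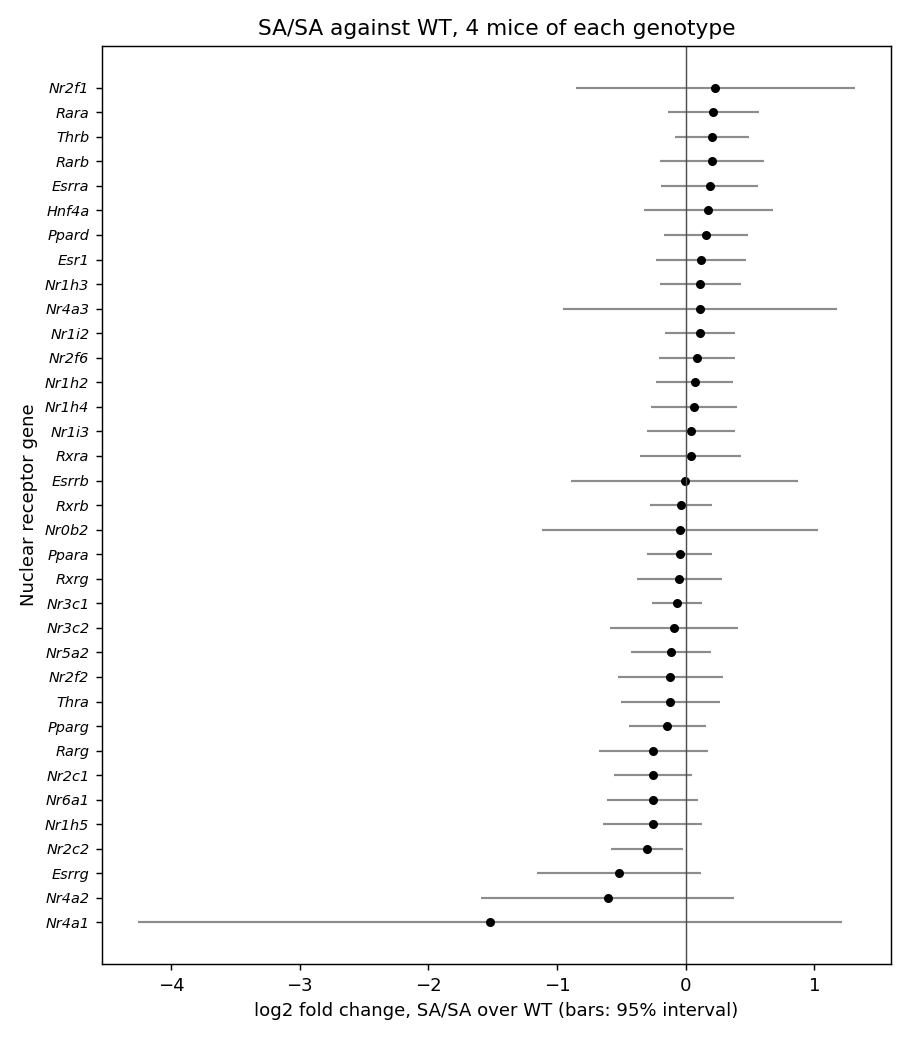
Log2 fold change of SA/SA over WT for the 35 tested nuclear receptor genes, with 4 mice of each genotype. Points are edgeR estimates, bars are 95% intervals and the vertical line marks no difference. Only the bar of Nr2c2 lies to one side of the line, and the bar of Nr4a1 is the widest, from -4.26 to 1.22.

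Of the 9 sensors of lipids, bile acids and foreign compounds, 6 had a log2 fold change above 0 and 3 below, with values between -0.26 and 0.16. Ppara, the fatty acid sensor that drives the fasting program, was at 114, 94.4, 82.2 and 94.6 CPM in the 4 WT mice and at 85.6, 98.3, 93.5 and 95.7 CPM in the 4 SA/SA mice. WT mouse 1 was the highest and WT mouse 3 the lowest, and the SA/SA values lay between them. The log2 fold change of Ppara was -0.05 ± 0.11 (SE), with a 95% interval from -0.30 to 0.21 and an edgeR adjusted p of 0.996.

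The other abundant sensors differed as little between genotypes. Nr1i3 averaged 824 ± 183 CPM in the WT livers and 848 ± 71.5 CPM in the SA/SA livers (SD, n = 4 each), a log2 fold change of 0.04 ± 0.15 (SE). Nr1h3 differed by 0.11 ± 0.14, Nr1h4 by 0.06 ± 0.15 and Nr1i2 by 0.11 ± 0.12 on the log2 scale (SE). In each of these 4 genes the 2 genotypes overlapped.

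Nr1h5, the gene of FXR beta, was at 3.90, 4.28, 3.41 and 3.36 CPM in WT mice and at 3.13, 2.71, 3.33 and 3.34 CPM in SA/SA mice. All 4 SA/SA values were below all 4 WT values, but the nearest pair, WT mouse 4 and SA/SA mouse 4, was separated by very little, and without a filter on low counts the genotypes overlapped. On the log2 scale Nr1h5 differed by -0.26 ± 0.17 (SE), with an edgeR adjusted p of 0.993 and an exact permutation p of 0.0286, the smallest that 4 mice against 4 can give. Nr1h5 (ENSMUSG00000048938) lies on chromosome 3 from 102939658 to 102964133 (GRCm38), where Gm22826 overlaps it on the same strand.

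The RXRs pair with the PPARs, LXRs, FXR, PXR and CAR, as well as with the retinoic acid, thyroid hormone and vitamin D receptors. Rxra was at 527, 574, 477 and 468 CPM in WT mice and at 466, 650, 620 and 366 CPM in SA/SA mice. SA/SA mice 2 and 3 were the highest and SA/SA mouse 4 the lowest, so that the WT values lay inside the range of the SA/SA values. The difference in Rxra was 0.04 ± 0.18 on the log2 scale (SE), and it was -0.01 when libraries were scaled by their size alone.

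Of the 11 tested receptors without a settled physiological ligand, 4 were above 0 and 7 below. Nr2c2 encodes TR4, an orphan receptor that binds direct repeats of AGGTCA. It was at 21.8, 18.5, 18.1 and 19.1 CPM in WT mice and at 17.8, 14.8, 13.0 and 17.1 CPM in SA/SA mice. All 4 SA/SA values were below all 4 WT values, with SA/SA mouse 1 close to the lowest WT mouse. The log2 fold change was -0.30 ± 0.13 (SE), with an unadjusted p of 0.0361 and an adjusted p of 0.993 in edgeR and an exact permutation p of 0.0286. Every gene without overlap, Nr1h5 included, has this permutation p, so it only repeats the lack of overlap.

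This difference in Nr2c2 was below 0 under every alternative, but the 2 genotypes overlapped when libraries were scaled by size alone. Its unadjusted edgeR p ranged from 0.0211 to 0.105 when 1 mouse was left out, and it was over 0.05 without WT mouse 1 (0.101), WT mouse 4 (0.0573), SA/SA mouse 2 (0.0892) or SA/SA mouse 3 (0.105). Nr2c2 (ENSMUSG00000005893) lies on chromosome 6 from 92091390 to 92174294 (GRCm38), and Mrps25 and Gm44249 overlap it on the opposite strand. Nr2c1, which encodes its partner TR2 and was looked at after its values were seen, averaged 9.84 ± 1.46 CPM in the WT livers and 8.26 ± 0.344 CPM in the SA/SA livers (SD, n = 4 each). The genotypes overlapped in Nr2c1, with an edgeR log2 fold change of -0.25 ± 0.14 (SE) and an adjusted p of 0.993.

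Hnf4a was at 816, 932, 668 and 570 CPM in WT mice and at 737, 1084, 1008 and 547 CPM in SA/SA mice. The 2 highest values and the lowest value were all in SA/SA mice. Hnf4a differed by 0.18 ± 0.23 on the log2 scale (SE). Nr2f6 (EAR2), the most abundant COUP-TF relative here, differed by 0.09 ± 0.13 on the log2 scale (SE).

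Nr2f1 (COUP-TF1) and Esrrb (ERR beta) were near the lower end of what could be tested, with 11 to 59 and 29 to 76 counts per library. Nr2f1 was between 0.227 and 1.21 CPM, with both extremes in SA/SA mice, and differed by 0.23 ± 0.49 on the log2 scale (SE). Esrrb was between 0.597 and 1.5 CPM, with both extremes in WT mice, and differed by -0.01 ± 0.40 (SE). The sign of both differences turned with the processing.

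Of the steroid receptors, Nr3c1, the glucocorticoid receptor, was at 39.3, 40.7, 38.1 and 37.9 CPM in WT mice and at 34.3, 39.4, 35.9 and 39.1 CPM in SA/SA mice. Its SD of log2 CPM within genotypes was 0.08, the smallest of the 35 tested receptors and at the 1.67th percentile of all genes tested. It differed by -0.07 ± 0.09 on the log2 scale (SE). Esr1, the estrogen receptor alpha, was at 15.7 ± 2.24 CPM in WT and 17.1 ± 3.25 CPM in SA/SA mice, and Nr3c2, the mineralocorticoid receptor, at 7.80 ± 2.16 and 7.32 ± 1.55 CPM (SD, n = 4 each). Both varied more than Nr3c1, with an SD of log2 CPM within genotypes of 0.24 for Esr1 and 0.35 for Nr3c2.

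Among the thyroid hormone and retinoic acid receptors, 3 of 5 were above 0 and 2 below, all with overlapping genotypes. Thrb, the main thyroid hormone receptor of hepatocytes, was between 15.6 and 20.7 CPM in WT and between 17.0 and 22.8 CPM in SA/SA mice. Thra was between 12.2 and 20.4 CPM in WT and between 14.2 and 18.4 CPM in SA/SA mice, and it overlaps the REV-ERB gene Nr1d1 on the opposite strand. Reads of Thra and Nr1d1 cannot be told apart where strand is not used, and the strand setting of the counting is not given in the sources used here. Rara was between 15.6 and 25.3 CPM in WT and between 21.2 and 28.4 CPM in SA/SA mice.

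The spread between mice of one genotype differed widely among the receptors. For 28 of the 35, the highest mouse was less than 2 times the lowest. The 7 others were Nr4a1, Nr2f1, Nr0b2, Nr4a2, Nr4a3, Esrrb and Esrrg. The SD of log2 CPM within genotypes was above 1 for 1 receptor (2.86%), Nr4a1, beside 3.96% of all genes.

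Nr4a1 (NUR77), a receptor induced within minutes to hours by hormones, was at 2.24, 3.53, 8.27 and 92.8 CPM in WT mice and at 3.58, 2.27, 2.24 and 29.1 CPM in SA/SA mice. The highest mouse of each genotype was its replicate 4, and the other 6 mice were between 2.24 and 8.27 CPM, so that the genotypes overlapped. The highest value was 41.5 times the lowest. The SD of log2 CPM within genotypes was 2.09, at the 99.7th percentile of all genes tested.

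The log2 fold change of Nr4a1 was -1.52 ± 1.23 (SE), with an edgeR adjusted p of 0.993 and an exact permutation p of 0.629. It was 0.99 without WT mouse 4, -3.30 without SA/SA mouse 4 and -0.79 when both were left out, and DESeq2 gave no adjusted p for this gene. The counts behind these values were between 85 and 4704 per library.

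The other NR4A genes were lower, at a mean of 0.224 (Nr4a2) and 0.0526 (Nr4a3) CPM per kb against 5.13 for Nr4a1, with an SD of log2 CPM within genotypes of 0.67 and 0.59. Nr4a2 (NURR1) was at 0.448, 1.61, 1.07 and 1.26 CPM in WT mice and at 0.853, 0.476, 0.475 and 1.07 CPM in SA/SA mice. Nr4a3 (NOR1) was at 0.168, 0.478, 0.232 and 0.336 CPM in WT mice and at 0.185, 0.434, 0.211 and 0.475 CPM in SA/SA mice. SA/SA mouse 4 was the highest SA/SA mouse for both, as for Nr4a1. Among WT mice the highest was mouse 2 for both, and not mouse 4. The log2 fold changes were -0.61 ± 0.44 for Nr4a2 and 0.11 ± 0.48 for Nr4a3 (SE), on 18 to 81 and 8 to 24 counts per library.

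Of 13 immediate early genes, which are transcribed rapidly after a stimulus as Nr4a1 is, none had an unadjusted edgeR p under 0.05 between genotypes, and the smallest belonged to Fosb, at a log2 fold change of -1.02 ± 0.64 (SE). Those with high values in mouse 4 of either genotype were picked after their values were seen. Sik1, a kinase gene induced by cAMP, was at 76.9 CPM in WT mouse 4 and between 7.93 and 25.1 CPM in the other mice. Btg2 was at 43.5 CPM in WT mouse 4 and between 8.75 and 24.2 CPM in the others, and Jun at 75.6 CPM against 10.5 to 34.5 CPM.

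SA/SA mouse 4 was not high for these 3 genes, at 22.9 CPM for Sik1, 15.0 CPM for Btg2 and 30.8 CPM for Jun. Atf3 and Crem were highest in the same pair of mice as Nr4a1. Atf3 was at 6.24 CPM in WT mouse 4 and 5.67 CPM in SA/SA mouse 4, above 1.77 to 3.12 CPM in the others. Crem was at 20.3 and 18.9 CPM in them, above 11.4 to 16.3 CPM. Summed over all 13 genes, the level was highest in WT mouse 4, at 411 CPM, followed by SA/SA mouse 3 at 291 CPM. SA/SA mouse 4 was at 233 CPM, and the remaining mice were between 113 and 213 CPM.

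Ppargc1a, a coactivator of PPARs and of HNF4A that is induced on fasting, was at 29.5 CPM in SA/SA mouse 4 and between 5.54 and 14.2 CPM in the other mice. Fos was highest in WT mouse 3, at 7.62 CPM. Summed red blood cell markers were also highest in WT mouse 4, at 2647 CPM, against 411 to 1462 CPM in the other mice, and were 989 CPM in SA/SA mouse 4. Their part in the Nr4a1 values was not tested.

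**Figure D3:**
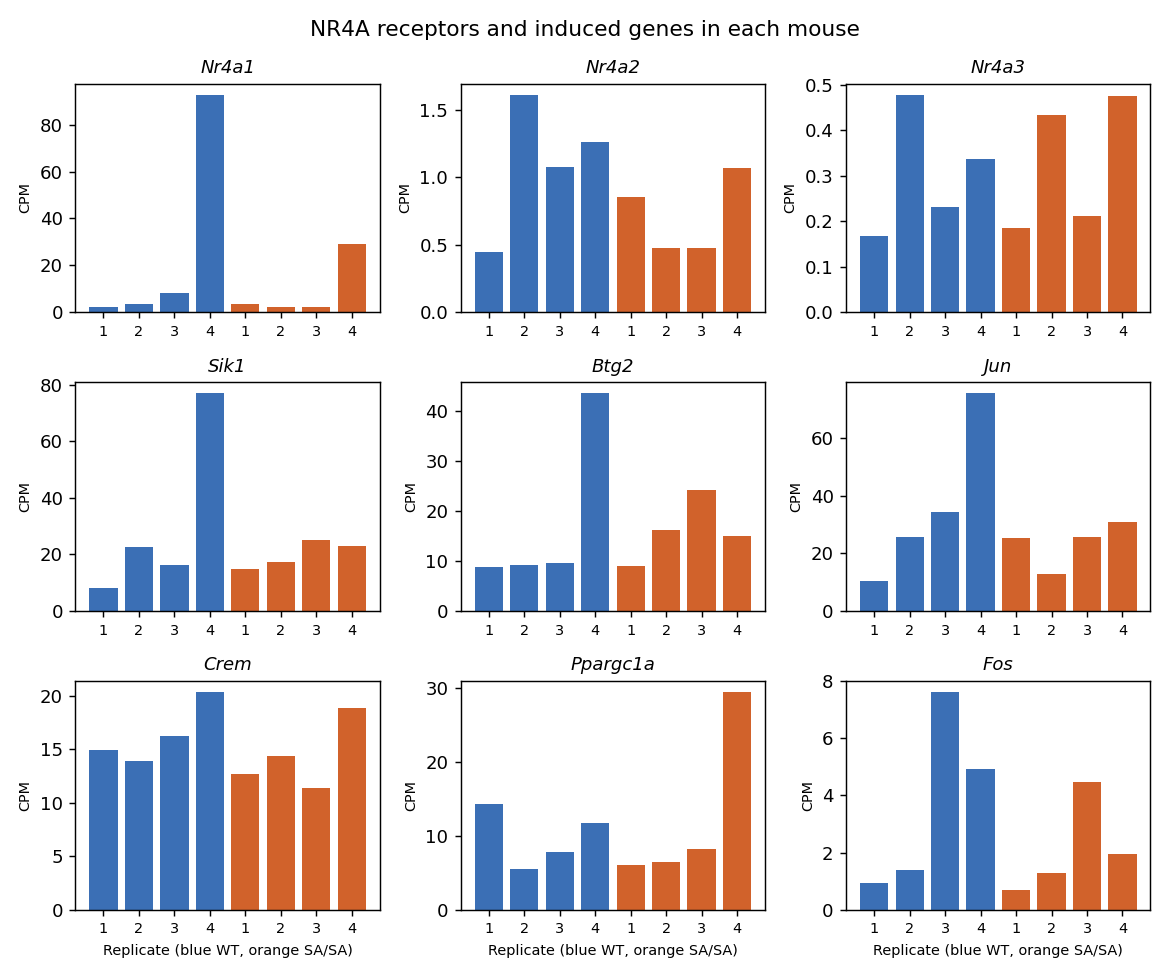
CPM of the 3 NR4A receptors and of 6 other rapidly induced genes in each mouse, with WT replicates 1 to 4 in blue and SA/SA replicates 1 to 4 in orange. Each panel has its own axis from 0. Nr4a1 reaches 92.8 CPM in WT mouse 4 and 29.1 CPM in SA/SA mouse 4, Sik1, Btg2 and Jun are high in WT mouse 4 only, and Ppargc1a is high in SA/SA mouse 4 only.

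Nr0b2 was at 19.7, 52.7, 11.5 and 13.7 CPM in WT mice and at 14.0, 38.2, 26.1 and 16.5 CPM in SA/SA mice. WT mouse 2 was the highest, followed by SA/SA mice 2 and 3, and the genotypes overlapped across most of their range. Nr0b2 differed by -0.04 ± 0.48 on the log2 scale (SE), with an edgeR adjusted p of 0.999. It was 0.66 without WT mouse 2 and -0.36 without SA/SA mouse 2.

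The 3 mice with the highest Nr0b2, namely WT mouse 2 and SA/SA mice 2 and 3, were also the 3 highest for 7 other receptors. These were Rxra, Nr1h3, Nr1h4, Nr1i2, Hnf4a, Esrra and Rara. In all, the same 3 mice were highest for 8 of 35 receptors (22.9%), beside 6.84% of all genes tested. With libraries scaled by size alone they were highest for 6 receptors (17.1%), beside 3.49% of all genes. They were lowest for 1 receptor, Nr2f2 (COUP-TF2), beside 6.48% of all genes, and with size alone for 2, Nr2f2 and Nr2c1, beside 11.3%. The set of mice was chosen after the values were seen, so these shares are a description.

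All 3 mice carry animal numbers over 800, as does WT mouse 3, which was not among the highest. Summed hepatocyte markers were 123393 and 130857 CPM in SA/SA mice 2 and 3, above the 90968 to 110326 CPM of the other 6 mice, in which WT mouse 2 had 102322 CPM. The TMM factors of SA/SA mice 2 and 3 were also the lowest, at 0.925 and 0.955, while WT mouse 2 had 0.987. Their part in the receptor values was not tested. Ppara and Nr3c1 did not share the pattern, with Ppara highest in WT mouse 1.

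**Figure D4:**
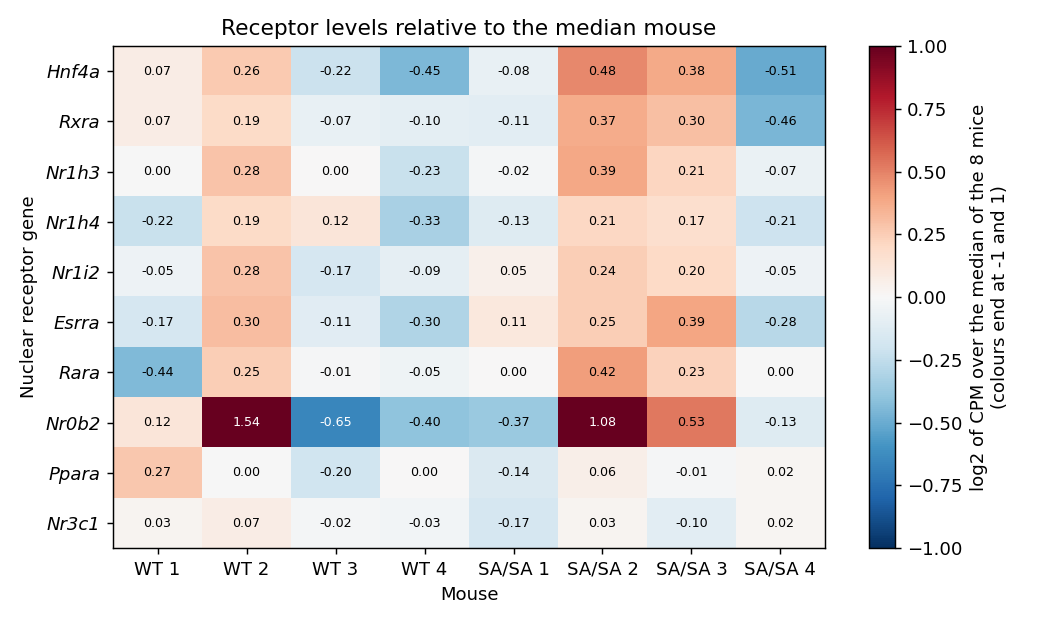
Log2 of CPM over the median of the 8 mice for 10 nuclear receptor genes, with 1 column per mouse; the number in each cell is the value, and colours end at -1 and 1. WT mouse 2 and SA/SA mice 2 and 3 are above the median for the upper 8 genes, while Ppara is highest in WT mouse 1 and Nr3c1 is nearly even.

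The animal numbers in the labels form a series under 200, with replicates 1 and 4 of each genotype, and a series over 800, with replicates 2 and 3. The labels do not say what separates the series. Within each, 2 SA/SA mice were set against 2 WT mice by their mean log2 CPM. The receptors below 0 in both were 7, including Nr2c2 (-0.22 under 200 and -0.40 over 800) and Nr1h5 (-0.16 and -0.34). Those above 0 in both were 6, including Nr1h3 (0.07 and 0.16) and Nr1i2 (0.07 and 0.17), and the other 22 had opposite signs. The shares over all genes are not given for these counts, so they are not read as a trait of the receptors.

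Opposite signs included Ppara, at -0.20 under 200 and 0.12 over 800, Rxra, at -0.27 and 0.28, and Hnf4a, at -0.10 and 0.41. Cell markers also changed sign, with a median of -0.14 under 200 and 0.38 over 800 for 5 hepatocyte markers and of -0.37 and 0.79 for 10 Kupffer cell markers. Their part in the receptor differences was not tested. No receptor passed an adjusted p of 0.05 for the interaction of genotype with series in edgeR, with a smallest value of 0.302, nor did any gene. DESeq2 called 285 genes for this interaction and 0 receptors. At an unadjusted edgeR p under 0.05 there were 5 receptors (14.3%), beside 11.1% of all genes. They were Esr1, Nr2f6, Nr1h2, Rxrb and Rxra. Esr1 had the smallest p, 0.00803, with a difference of -0.25 under 200 and 0.47 over 800.

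**Figure D5:**
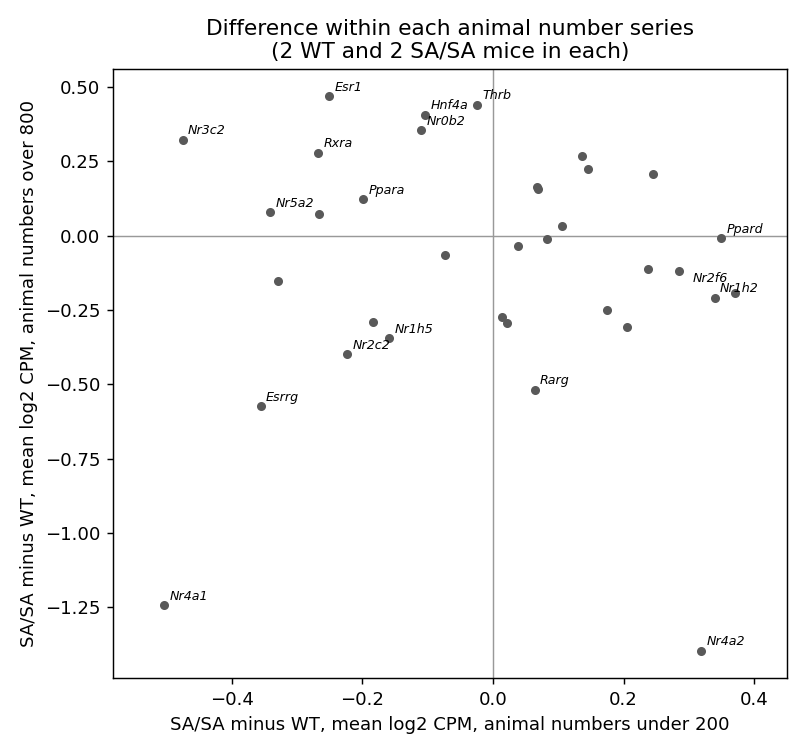
Difference in mean log2 CPM, SA/SA minus WT, in mice with animal numbers under 200 (horizontal axis) and over 800 (vertical axis) for the 35 tested nuclear receptor genes, with 2 mice of each genotype in each series. Points to the upper left and lower right of the 2 lines, such as Rxra and Nr2f6, had opposite signs in the 2 series, and 22 of 35 genes did. The share over all genes is not given. Nr2c2, Nr1h5 and Nr4a1 were below 0 in both.

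Genes that work with the receptors or respond to them were read from lists of known members. The lists were chosen with earlier results of these data known, so their counts beside all genes are a description. Outside the 39 receptors, the related gene Rora differed by -0.13 ± 0.12 on the log2 scale (SE), with an edgeR adjusted p of 0.993.

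Of 24 coregulators, 3 had an unadjusted edgeR p under 0.05, all lower in SA/SA mice, beside 1.98% of all genes in that direction. They were the acetyltransferase gene Kat2b (-0.30 ± 0.12), the coactivator gene Ncoa6 (-0.30 ± 0.12) and the corepressor gene Ncor1 (-0.27 ± 0.12; log2 fold change and SE). Ncor1 was close to the limit, at an unadjusted edgeR p of 0.0496, and its side turned with the processing. Its edgeR p was 0.0568 with libraries scaled by size alone and 0.0244 with an animal number series block. Ncoa6 was at 27.5, 22.9, 21.6 and 22.2 CPM in WT mice and at 21.1, 19.2, 20.2 and 16.0 CPM in SA/SA mice. All SA/SA values of Ncoa6 were below all WT values. Those of the coactivator gene Ncoa1 were as well, at -0.18 ± 0.11 on the log2 scale (SE), but the lowest WT mouse and the highest SA/SA mouse were both at 16.0 CPM. The list had 9 genes above 0 and 15 below, with a median of -0.12, beside -0.01 for all genes. All of these genes had an edgeR adjusted p of 0.993.

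Of 15 tested enzymes and carriers that make, break down or bring ligands, 2 had an unadjusted edgeR p under 0.05, both lower in SA/SA mice, beside 1.98% of all genes in that direction. Cyp26a1, which degrades retinoic acid and is itself a retinoic acid target, was at 3.21 CPM on average in WT and 1.83 CPM in SA/SA mice, a log2 fold change of -0.81 ± 0.32 (SE). The genotypes overlapped in Cyp26a1. Its unadjusted edgeR p ranged from 0.00654 (without WT mouse 1) to 0.104 (without WT mouse 4) when 1 mouse was left out. Srd5a1, which reduces steroids, differed by -0.61 ± 0.25 (SE), with WT mouse 3 at 43.4 CPM and the other WT mice between 20.6 and 23.7 CPM. Without WT mouse 3 the difference in Srd5a1 was -0.31, with an unadjusted edgeR p of 0.118. The adjusted p of both was 0.993 in edgeR.

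Target genes of the receptors gave few differences. Of 18 PPAR targets, none had an unadjusted edgeR p under 0.05, and the median log2 fold change was 0.02. The smallest p was that of Angptl4, a secreted lipase inhibitor, at 0.21 ± 0.14 (SE). Within the animal number series the median was 0.19 under 200, with 14 of 18 above 0, and -0.30 over 800, with 5 of 18 above 0. The medians over all genes were -0.004 and -0.009, and the shares of all genes above 0 in each series are not given. Hepatocyte and Kupffer cell markers also changed sign between the series, and their part here was not tested.

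Of 9 LXR targets, 3 had an unadjusted edgeR p under 0.05, all lower in SA/SA mice, beside 1.98% of all genes in that direction. Of the 9, 8 were below 0, beside 51.2% of all genes, with a median of -0.18. Abcg5 and Abcg8 encode the 2 subunits of a sterol transporter. Abcg8 was at 90.6, 80.4, 67.9 and 71.0 CPM in WT mice and at 56.9, 64.7, 52.5 and 55.6 CPM in SA/SA mice. All SA/SA values were below all WT values. The log2 fold change of Abcg8 was -0.43 ± 0.12 (SE), with an unadjusted edgeR p of 0.00441 and an adjusted p of 0.993.

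Abcg5 differed by -0.47 ± 0.15 on the log2 scale (SE), with values from 52.9 to 79.8 CPM in WT and from 40.5 to 53.5 CPM in SA/SA mice. Scd1, the stearoyl-CoA desaturase, was at 701, 1962, 3095 and 1010 CPM in WT mice and at 1190, 412, 580 and 352 CPM in SA/SA mice. The genotypes overlapped, since SA/SA mouse 1 was above 2 WT mice. Scd1 differed by -1.42 ± 0.50 (SE), with an edgeR adjusted p of 0.993. The other LXR targets, among them Abca1, Srebf1 and Pltp, had values between -0.52 and 0.13 on the log2 scale.

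Of 12 glucocorticoid receptor targets, 1 was higher and 1 lower at an unadjusted edgeR p under 0.05, beside 1.42% of all genes higher and 1.98% lower. G6pc, the glucose-6-phosphatase of gluconeogenesis, was at 213, 242, 335 and 451 CPM in WT mice and at 154, 181, 195 and 208 CPM in SA/SA mice. All SA/SA values were below all WT values, with a log2 fold change of -0.75 ± 0.22 (SE). Mt1, a metallothionein, was between 263 and 392 CPM in WT and between 326 and 837 CPM in SA/SA mice, a log2 fold change of 0.81 ± 0.27 (SE). Both had an edgeR adjusted p of 0.993.

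Targets of the other receptors had no further gene at an unadjusted edgeR p under 0.05, apart from Cyp26a1, which is also on the list of 5 tested retinoic acid receptor targets. The smallest p belonged to Slc27a5 among 8 tested FXR and SHP targets, to Alas1 among 17 PXR and CAR targets, to Mttp among 10 HNF4A targets and to Dio1 among 6 thyroid hormone receptor targets. Their log2 fold changes were 0.19 ± 0.13 for Slc27a5, 0.40 ± 0.19 for Alas1, -0.17 ± 0.11 for Mttp and -0.50 ± 0.26 for Dio1 (SE). Apoc2, an HNF4A target, was lower in all SA/SA mice than in all WT mice, at -0.18 ± 0.12 (SE). Without SA/SA mouse 3, the log2 fold changes were -0.08 for Apoc2, 0.20 for Alas1, -0.30 for Dio1 and -0.10 for Mttp.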

How the data were processed

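The deposited table holds estimated counts for each gene, which the authors made with salmon and scaled for transcript length but not for library size. Submitters' processing notes name STAR, SAMtools, MultiQC, DESeq2 and build GRCm38; how these tools relate to the table and its strand setting is not given in the sources used here. Columns were matched to mice by animal number. Counts were rounded and tested over all genes with edgeR 4.0.16 (R 4.3.3), using filterByExpr, TMM, the quasi-likelihood test and Benjamini-Hochberg adjustment. The interaction with animal number series used the same test. The log2 CPM (prior count 2) of single genes was further compared by exact permutation, two-sided. Alternatives were DESeq2 1.42.0, voom of limma 3.58.1, other scalings and filters, blocks and leaving out mice. In simulated SA/SA against WT counts, 200 genes drawn from all genes tested were changed at once. There edgeR called 28 of 50 genes changed 2-fold, 41 of 50 changed 4-fold and 7 of 14429 unchanged genes. The adjusted p depends on how many genes change, so these shares do not hold for a single changed receptor. Coordinates and lengths are from GENCODE release 21 of the mouse, where 45143 identifiers matched. Of the receptors, 36 of 39 had a RefSeq start window.

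The members and gene lists were chosen with earlier results of these data known. Fold changes are given for receptors at an unadjusted p under 0.05 or without overlap, the 8 most abundant per kb, the 6 with the largest SD and Ppara, Rxra, Nr1h4, Nr1i3, Nr3c1 and Nr0b2, and, of each list, for genes at that p or without overlap and the gene of smallest p. No libraries were copies of each other, with a chi-square of at least 40.2 per gene between any pair, where sampling noise gives about 1. The hepatocyte marker Tf was not analysed here.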

Additional observations from a re-analysis of the deposited data

Results flagged for a closer look

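In 124 groups of 4 mice (the 35 tested receptors and the other genes named, in each genotype), Dixon's test set 8 values apart from the other 3 mice of their group. Chance flags about 1 in 20 groups, which is about 6 of 124, where genes are chosen without regard to their values. Some of the genes named, such as Btg2, were picked after their values were seen. The 8 therefore cannot be set against the 6.

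Nr4a1 was set apart in both genotypes, and each time the mouse was replicate 4. It was at 92.8 CPM in WT mouse 4, with 2.24 to 8.27 CPM in the other WT mice, and at 29.1 CPM in SA/SA mouse 4, with 2.24 to 3.58 CPM in the others. In the same mice, Btg2 was at 43.5 CPM in WT mouse 4 (other WT mice 8.75 to 9.52 CPM) and Ppargc1a at 29.5 CPM in SA/SA mouse 4 (other SA/SA mice 6.08 to 8.21 CPM).

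Nuclear receptors with a low value in 1 WT mouse were Nr2f2, at 13.8 CPM in WT mouse 2 (others 19.9 to 20.3 CPM), Thra, at 12.2 CPM in the same mouse (others 19.1 to 20.4 CPM), and Nr1h2, at 46.9 CPM in WT mouse 1 (others 59.4 to 61.7 CPM). Srd5a1 was high in WT mouse 3, at 43.4 CPM, with 20.6 to 23.7 CPM in the other WT mice. No cause of these values was tested.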

How the results depend on the processing

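The number of receptors past an adjusted p of 0.05 was 0 under every alternative run, including each mouse left out, and the lowest adjusted p of a receptor was 0.798 over the edgeR and limma-voom fits. The interaction with animal number series had 0 receptors past that threshold in edgeR, in DESeq2 (which called 285 of the 14629 genes) and with library size alone. With 1 mouse left out, the receptors at an unadjusted p under 0.05 numbered 0 (without SA/SA mouse 3) to 2 (without WT mouse 1, WT mouse 2 or SA/SA mouse 4). Over all genes that number was 362 of 14881 without SA/SA mouse 3. It was 666 of 14844 without WT mouse 1, 684 of 14848 without WT mouse 2 and 626 of 14916 without SA/SA mouse 4. Receptors without overlap numbered 2 to 6 (6 without WT mouse 2, 4 without WT mouse 1). With fewer mice a lack of overlap arises more easily, and the share over all genes is not given for these settings. The median log2 fold change ran from -0.050 to 0.049 (the last without WT mouse 2). With library size alone, where the median of all genes was -0.042, and with no filter, 1 receptor was without overlap in place of 2: Nr1h5 in the first and Nr2c2 in the second.

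Over 41 named genes, 745 of 775 log2 fold changes kept their direction, 30 turned and none was called. Esrrb turned to 0.0512 in limma-voom and 0.0339 with a replicate block, Nr0b2 to 0.11 in limma-voom and 0.11 with that block, Nr2f1 to -0.048 in limma-voom and Rxra to -0.00984 with library size alone. With mice left out, the lowest and highest values were -0.245 and 0.336 for Esrrb, -0.36 and 0.66 for Nr0b2, -0.0197 and 0.15 for Nr1h4, -0.0516 and 0.20 for Nr1i3, -0.0406 and 0.55 for Nr2f1, -3.30 and 0.99 for Nr4a1, -0.125 and 0.417 for Nr4a3, -0.12 and 0.0498 for Ppara, -0.0732 and 0.18 for Rxra and -0.51 and 0.59 for Ppargc1a. Leaving out mouse 4 of both genotypes, an alternative chosen after Nr4a1 was seen, gave 0.41 for Esrrb, -0.00402 for Nr1i3, -0.0727 for Nr4a3 and -0.42 for Ppargc1a. The cause of these turns was not tested.

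The correlation of deviations from the genotype means within replicate numbers 1 to 4 was low, at 0.06, 0.17, -0.11 and 0.13. Mice 1 and mice 2 correlated best with their own number in both directions. WT mouse 4 correlated best with SA/SA mouse 4, which correlated best with WT mouse 3. Mice 4 carry animal numbers 89 (WT) and 90 (SA/SA), and the main fit assumed no pairing. With a replicate block, Nr4a1 differed by -0.93 ± 0.41 on the log2 scale (SE), with an unadjusted edgeR p of 0.0561. With the replicate block, 0 receptors were past an adjusted p of 0.05, 1 was at an unadjusted p under 0.05 (as without the block), 2 were without overlap and the median was 0.005, while 579 in place of 497 of all genes were at an unadjusted p under 0.05. Depth leaves Nr4a3 with 8 to 24 and Nr2f1 with 11 to 59 counts per library. In simulated SA/SA against WT counts, 3 of 50 genes changed 1.5-fold were called.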
